A study of Mus musculus with 4 samples.

Results

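The autophagy and lysosome genes described here were chosen by name. They are the genes whose symbols start with Atp6v (subunits of the proton pump V-ATPase), Map1lc3 or Gabarap (the Atg8 family), or Atg and a digit, together with Ulk1, Ulk2, the Lamp genes and the cathepsins Ctsa, Ctsb, Ctsc, Ctsd, Ctsf, Ctsh, Ctsk, Ctsl and Ctsz. The rule found 62 of the 21839 genes in the table, and 50 of them had a mean of at least 1 over the 4 libraries in FPKM, the reads per kilobase of gene and per 1000000 reads. RNA was sequenced from wild-type mouse embryonic fibroblasts after 48 h in 4 conditions: cocultured with mesenchymal stem cells (MSCs) and treated with QNZ, an inhibitor of NF-κB, cocultured without QNZ, alone with QNZ, and alone without QNZ. The fibroblasts came from C57BL/6 embryos at day 13.5, the MSCs from mouse bone marrow, and a porous membrane separated the cell types. The sources used here do not give the dose of QNZ. Each condition was 1 library, so no difference here has a replicate check, and no p-value, SD or SE is given.

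Autophagy encloses cytoplasm in a double membrane, the autophagosome, and delivers it to the lysosome for breakdown. The Ulk kinases start the process, the Atg proteins build the membrane and attach Atg8 proteins to its lipids, and the autophagosome then fuses with the lysosome, whose membrane carries LAMP proteins. V-ATPase pumps protons into the lysosome, and the cathepsins work as proteases in the acid inside. Fibroblasts use this route to clear damaged organelles and to break down collagen they have taken up.

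The libraries held 13153696 to 15778488 reads assigned to genes. Differences are given on the log2(FPKM + 1) scale, and only genes that differed by at least 1 were counted. Ratios of reads per 1000000 carry, in parentheses, 95% intervals for counting error only. Long genes were higher in coculture relative to short genes. Over the genes with a mean FPKM of at least 1, the median coculture difference without QNZ was -0.84 in the shortest of 10 length groups and 1.18 in the longest, and subtracting this trend turned the sign of the coculture difference for 16 of the 50 genes without QNZ and for 15 with QNZ. Values with it subtracted are given beside the counted genes and several others. Mitochondrial genes took 1.49% of reads with QNZ and 0.738% without it in coculture, and 0.58% with QNZ and 0.291% without it alone. Fibroblast markers were measured in every library (11 of 12 at a mean FPKM of at least 1, among them vimentin at 409.7 to 937 FPKM). As measured they also moved with coculture, with 5 counted higher without QNZ, 6 with QNZ and 0 lower in either. Their medians were 0.85 and 1.22, or 0.21 and 0.67 with the length trend subtracted. Counted then were 1 higher and 1 lower without QNZ, and 4 higher and 0 lower with QNZ. Of all genes 24.3% were counted higher and 11.7% lower without QNZ, and 14.4% and 9.25% with QNZ. With that trend subtracted 1227 of 10610 were higher and 1181 lower without QNZ, and 886 and 673 with QNZ. Of the bone marrow stromal markers, 10 of 15 were measured, 5 of them counted higher in coculture in each pair and 0 lower (with the length trend subtracted 4 higher and 1 lower without QNZ, and 3 higher and 1 lower with QNZ). Grem1, a secreted BMP antagonist, had the largest rise without QNZ, at 717 FPKM in cocultured fibroblasts, against 60.0 in fibroblasts alone. Others fell, as Ly6a did from 446 to 227 FPKM and Nes from 25.0 to 17.8 FPKM, differences of -0.97 and -0.47 (-0.10 and -1.08 with the length trend subtracted). Of 15 housekeeping genes, 2 (Ppia and Rplp0) were counted lower in coculture in each pair as measured and 0 higher, with medians of -0.67 without QNZ and -0.57 with QNZ. With the length trend subtracted 1 (B2m) was higher and 4 lower without QNZ, and 0 higher and 2 lower with QNZ. The medians were then -0.52 and -0.45. In bulk RNA a change in which cells are present and a change in RNA per cell cannot be told apart, and the part of these values in the results below was not tested.

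The 50 measured genes covered nearly every step of the pathway. Cathepsins took the largest share of the summed FPKM of the 62 genes, at 1041 FPKM with QNZ and 851 without it in cocultured fibroblasts, and 1036 with QNZ and 880.3 without it in fibroblasts alone. Ctsz, a carboxypeptidase, Lamp1, a main glycoprotein of the lysosomal membrane, and Ctsd, the aspartic protease of the lysosome, were the most abundant per length. Ctsz had 244 FPKM with QNZ and 221 without it in cocultured fibroblasts, and 284 with QNZ and 311 without it in fibroblasts alone. The Ulk kinases stood at the other end, with a summed 21.5 FPKM with QNZ and 24 without it in cocultured fibroblasts, and 11.2 with QNZ and 7.45 without it in fibroblasts alone. Levels within a family spanned a wide range, as in the cathepsins, where Ctsf, a cysteine protease, had only 4.13 FPKM in fibroblasts alone.

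**Figure D1:**
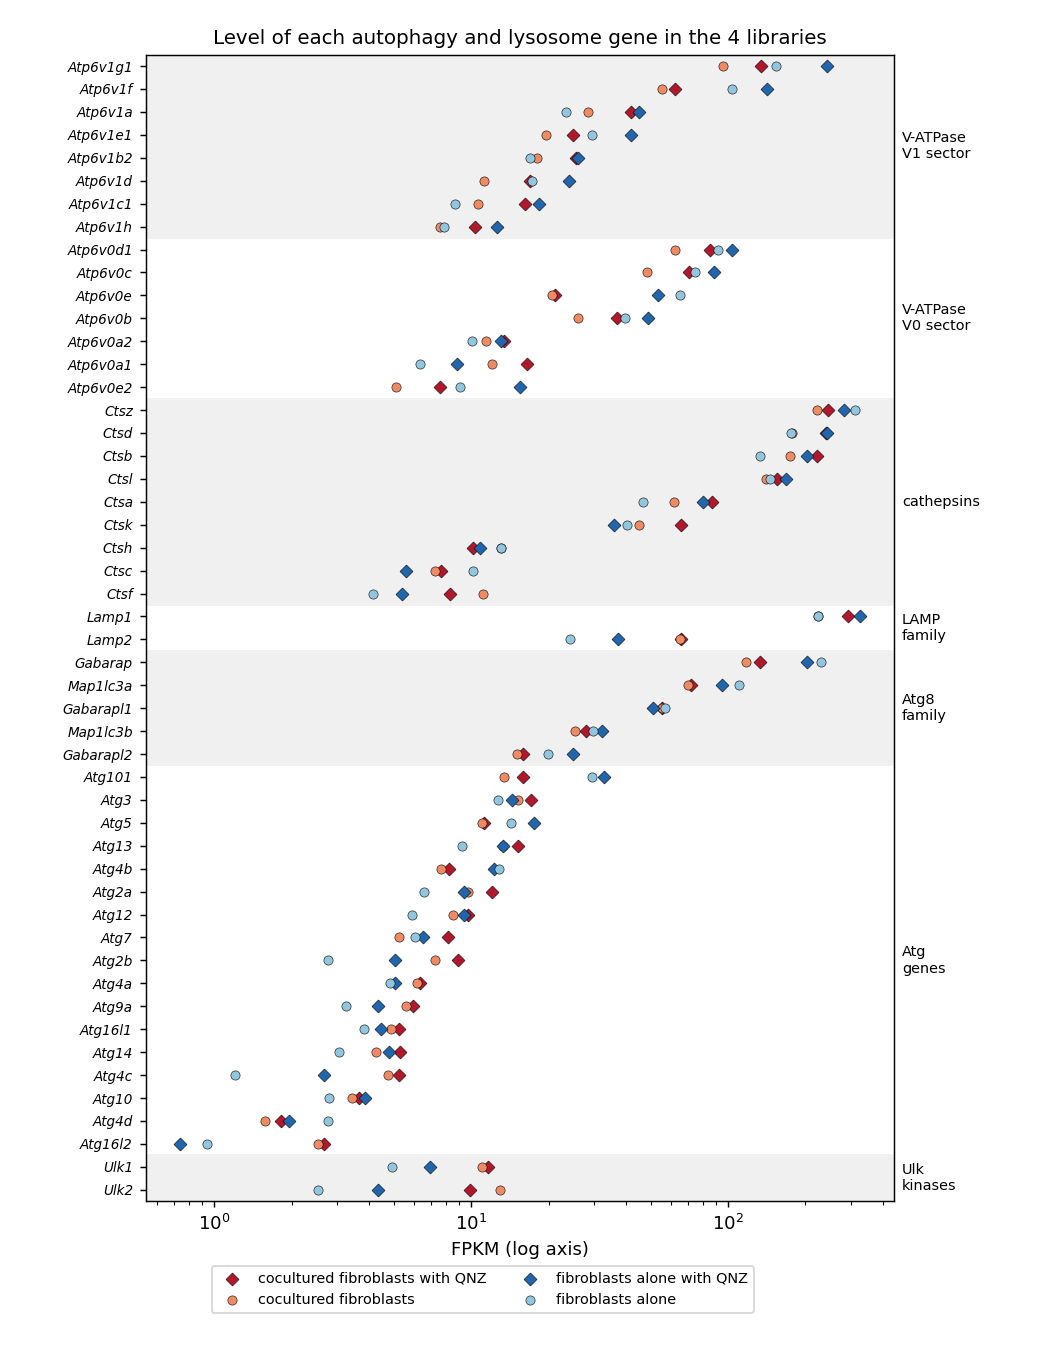
FPKM (log axis) of the 50 genes with a mean FPKM of at least 1, grouped by family and ordered by mean level, with 1 point per library. Ctsz, Lamp1 and Ctsd lie highest, and Ulk2 and Lamp2 show the cocultured libraries (red and orange) to the right of those alone (blue).

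The other 12 genes were at or near 0, and most are forms known from specialised cells. Atp6v1e2, Atp6v1g3, Atp6v1fnb (named as a neighbour of Atp6v1f, not as a subunit) and Lamp5 had 0 reads in every library, which allows at most 0.228 reads per 1000000 in the smallest. Lamp3 had 1 read in cocultured fibroblasts with QNZ and 0 elsewhere. Atp6v0d2, a subunit known from osteoclasts, had 1 read with QNZ and 2 without it in cocultured fibroblasts, and 1 with QNZ and 0 without it in fibroblasts alone. Atp6v0a4, Atp6v1b1 and Atp6v1c2, subunits known from kidney and other acid-secreting tissue, had at most 10 reads in any library, as did Atg4a-ps, whose symbol marks it as a pseudogene. Atp6v1g2, a form known from brain, had 19 reads with QNZ and 34 without it in cocultured fibroblasts, and 2 with QNZ and 14 without it in fibroblasts alone. Atg9b, a paralogue of the membrane protein Atg9a, had 84 reads in cocultured fibroblasts, against 2 in fibroblasts alone, and with QNZ 35 in cocultured fibroblasts, against 15 alone. It shares exon bases with Nos3 on the other strand, which had at most 3 reads in any library.

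The first comparison asks how fibroblasts facing MSCs differed from fibroblasts alone. Without QNZ, 6 of the 50 genes were counted higher in coculture (Ulk2, Lamp2, Atg4c, Ctsf, Atg2b and Ulk1) and 2 lower (Atp6v0e and Atg101), where 24.3% of all 10610 genes tested were higher and 11.7% lower. The split turned with the scaling, to 2 higher and 14 lower under median-of-ratios scaling, 11 higher and 1 lower when FPKM were rescaled to a sum of 1000000 (TPM), and 2 higher and 3 lower with the length trend subtracted. Of all 10610 genes 1410 were higher and 2315 lower under median-of-ratios scaling, 4769 and 623 as TPM, and 1227 and 1181 with that trend subtracted. With QNZ, 2 of the 50 were counted higher in coculture (Atg16l2 and Ulk2) and 3 lower (Atp6v0e, Atp6v1f and Atg101), where 14.4% of all genes were higher and 9.25% lower. Here it was 0 higher and 5 lower under median-of-ratios scaling, 8 higher and 0 lower as TPM, and 1 higher and 2 lower with the length trend subtracted. All 10610 genes had 982 higher and 1489 lower, 3210 and 552, and 886 and 673, in the same order of settings. Over the 50 genes the median difference was 0.0049 without QNZ, beside 0.31 over all genes, and -0.04 with QNZ, beside 0.15 over all genes. At a smaller size of 0.58, 9 were higher and 10 lower without QNZ, where 39.8% and 20.4% of all genes were, and 8 were higher and 9 lower with QNZ, where 29.2% and 19.2% were. The scaling moved these medians together with the median over all genes, which without QNZ was -0.13 under median-of-ratios scaling and 0.85 as TPM.

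The kinases that start autophagy were higher in coculture. Ulk2 had 13 FPKM in cocultured fibroblasts, against 2.53 in fibroblasts alone, and with QNZ 9.87 FPKM in cocultured fibroblasts, against 4.36 alone. Both cocultured libraries lay above both libraries of fibroblasts alone. The difference was 1.99 without QNZ, a ratio of 5.13 (4.45 to 5.93), and 1.02 with QNZ, a ratio of 2.26 (2.01 to 2.56). The gene lies at chr11:61775649-61855073 of mm10 on the minus strand, and its difference without QNZ stayed at 1 or more under every scaling and with the trends of gene length and GC content subtracted. With QNZ it did not, at 0.78 under median-of-ratios scaling, 0.68 with the length trend subtracted and 0.70 with the length and GC trends subtracted. Ulk1, the better known of the pair, had 11 FPKM in cocultured fibroblasts, against 4.92 in fibroblasts alone, and with QNZ 11.6 FPKM in cocultured fibroblasts, against 6.89 alone. Its cocultured libraries were also the higher ones, with differences of 1.02 and 0.68, but subtracting the length trend left 0.39 of the difference without QNZ and 0.28 with it. Atg101 and Atg13 belong to the same kinase complex and were not counted higher with the kinases. Atg101, a stabilising subunit, had 13.4 FPKM in cocultured fibroblasts, against 29.6 in fibroblasts alone, and with QNZ 15.9 FPKM in cocultured fibroblasts, against 32.8 alone. It was lower in both cocultured libraries, by differences of -1.09 and -1.0, of which -0.46 and -0.41 were left with the length trend subtracted, and at 1597 bases it is a short gene. Atg13, a scaffold of the complex, had differences of 0.49 without QNZ and 0.19 with QNZ.

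Most Atg genes lay a little above 0 in coculture, at a median of 0.29 over 17 measured genes without QNZ and 0.19 with QNZ, near the medians of all genes. The sign depended on the processing, with medians from -0.19 to 0.82 without QNZ and from -0.15 to 0.58 with QNZ over the scalings and trend corrections. Atg4c, a protease that trims Atg8 proteins, had 4.74 FPKM in cocultured fibroblasts, against 1.2 in fibroblasts alone, and with QNZ 5.24 FPKM in cocultured fibroblasts, against 2.67 alone. It rested on few reads, 236 in cocultured fibroblasts against 62 in fibroblasts alone, and its difference of 1.38 stayed at 1 or more under every scaling and trend correction. Its relatives differed from it. Atg4b, the main Atg8 protease in mammals, had 7.64 FPKM in cocultured fibroblasts, against 12.9 in fibroblasts alone, and with QNZ 8.19 FPKM in cocultured fibroblasts, against 12.3 alone, and so was lower in both cocultured libraries, while Atg4a had differences of 0.29 and 0.28 and Atg4d of -0.55 and -0.067. With the length trend subtracted Atg4b was at -1.51 without QNZ and -1.08 with QNZ, and so counted lower in both pairs. Atg4d was then at -1.27, counted lower, without QNZ and at -0.53 with QNZ. Atg4d shares 1405 exon bases with Kri1 on the other strand.

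Atg2b, a lipid transfer protein that feeds the growing membrane, had 7.25 FPKM in cocultured fibroblasts, against 2.78 in fibroblasts alone, and with QNZ 8.85 FPKM in cocultured fibroblasts, against 5.04 alone. At 13456 bases it is the longest of the measured genes, and its difference of 1.12 without QNZ became -0.053 with the length trend subtracted. Its paralogue Atg2a had differences of 0.51 and 0.33, which became -0.26 and -0.17 with that trend subtracted. Atg16l2, a homologue of the conjugation factor Atg16l1, had 2.52 FPKM in cocultured fibroblasts, against 0.935 in fibroblasts alone, and with QNZ 2.68 FPKM in cocultured fibroblasts, against 0.733 alone. It was the Atg gene farthest above 0 in the pair with QNZ (1.09), and the libraries of fibroblasts alone were both under 1 FPKM. With the length trend subtracted this difference was 0.52, below that of Atg4c (0.83), and under median-of-ratios scaling it was 0.91, so that it was not counted in either. Of the machinery that attaches Atg8 proteins to lipid, Atg3, the enzyme of the last step, had 15.2 FPKM in cocultured fibroblasts, against 12.8 in fibroblasts alone, and with QNZ 17.1 FPKM in cocultured fibroblasts, against 14.4 alone. Atg5, which with Atg12 and Atg16l1 forms the ligase, had 11 FPKM in cocultured fibroblasts, against 14.2 in fibroblasts alone, and with QNZ 11.2 FPKM in cocultured fibroblasts, against 17.6 alone. The differences of Atg3 were 0.24 and 0.23 and those of Atg5 -0.34 and -0.61. The others (Atg7, Atg9a, Atg10, Atg12, Atg14 and Atg16l1) had differences from -0.18 to 0.63 without QNZ and from -0.061 to 0.38 with QNZ.

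The genes of the Atg8 proteins, which coat the autophagosome membrane and recruit cargo, lay mostly below 0 in coculture as measured. All 5 lay below 0 without QNZ (median -0.38) and 4 of 5 with QNZ (median -0.39), but as TPM 3 of 5 lay above 0 without QNZ, with a median of 0.12, and with QNZ the median reached 0.0026 with the length and GC trends subtracted. Gabarap, the most abundant of the family per length, had 117 FPKM in cocultured fibroblasts, against 229 in fibroblasts alone, and with QNZ 134 FPKM in cocultured fibroblasts, against 203 alone. Its differences were -0.96 and -0.60, just short of the size counted without QNZ, and -0.45 and -0.11 with the length trend subtracted. Map1lc3a had 69.7 FPKM in cocultured fibroblasts, against 110.1 in fibroblasts alone, and with QNZ 71.7 FPKM in cocultured fibroblasts, against 94.5 alone. This gene of 1181 bases turned sign in both pairs with the length trend subtracted, from -0.65 to 0.23 without QNZ and from -0.39 to 0.41 with QNZ. Map1lc3b, whose protein LC3B is the usual marker of autophagosomes, had 25.4 FPKM in cocultured fibroblasts, against 29.8 in fibroblasts alone, and with QNZ 28.1 FPKM in cocultured fibroblasts, against 32.2 alone. Its differences of -0.22 and -0.19 were small, and became -0.97 and -0.68 with the length trend subtracted. Gabarapl2 had 15.1 FPKM in cocultured fibroblasts, against 19.9 in fibroblasts alone, and with QNZ 15.9 FPKM in cocultured fibroblasts, against 24.9 alone, so that it too was lower in coculture in both pairs. Gabarapl1 had 55.3 FPKM in cocultured fibroblasts, against 57 in fibroblasts alone, and with QNZ 55.3 FPKM in cocultured fibroblasts, against 50.9 alone, and its 4 libraries were close.

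**Figure D2:**
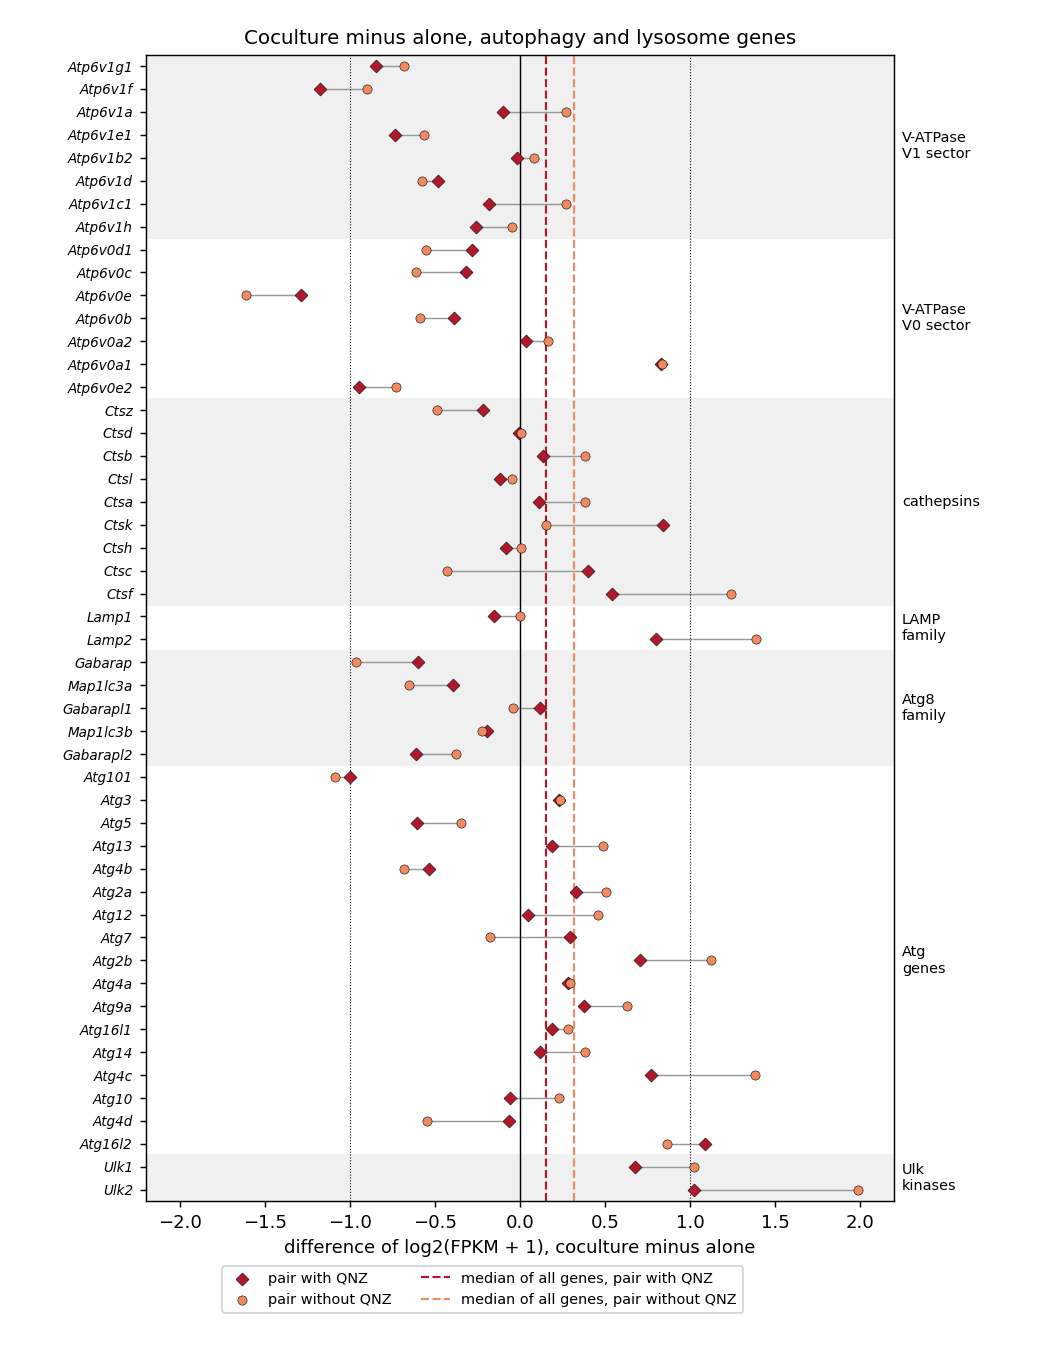
Difference of log2(FPKM + 1), coculture minus alone, for each of the 50 genes in the pair with QNZ (red diamonds) and the pair without QNZ (orange circles). Dashed lines are the medians of all 10610 genes (0.15 and 0.31), dotted lines mark the size counted, and Ulk2, Lamp2 and Atp6v0e lie farthest out in the pair without QNZ.

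The membrane proteins of the lysosome differed from each other. Lamp2, which is needed for fusion and for chaperone-mediated autophagy, had 65.1 FPKM in cocultured fibroblasts, against 24.3 in fibroblasts alone, and with QNZ 65.8 FPKM in cocultured fibroblasts, against 37.3 alone. The cocultured libraries were nearly equal, at 65.8 and 65.1 FPKM, and above both libraries of fibroblasts alone. The ratio was 2.68 (2.58 to 2.79) without QNZ and 1.76 (1.7 to 1.82) with QNZ. Lamp2 lies at chrX:38401357-38456454 of mm10 on the minus strand, and the files have 1 value for the gene, so its splice forms are not separated. At 9552 bases it is a long gene, and its difference without QNZ was 1.39, but 0.46 with the length trend subtracted and -3.22e-05 with the length and GC trends subtracted. With QNZ its 0.80 became 0.16 and -0.28. Lamp1 had 224 FPKM in cocultured fibroblasts, against 225 in fibroblasts alone, and with QNZ 294 FPKM in cocultured fibroblasts, against 327 alone. It did not follow Lamp2, with differences of -0.0012 and -0.15.

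The cathepsins as a family were near 0 in coculture, with medians of 0.0061 without QNZ and 0.11 with QNZ, and from -0.49 to 0.52 and from -0.16 to 0.50 over the scalings and trend corrections. Ctsf was the only cathepsin counted in coculture as measured. It had 11.1 FPKM in cocultured fibroblasts, against 4.13 in fibroblasts alone, and with QNZ 8.28 FPKM in cocultured fibroblasts, against 5.37 alone. Its difference was 1.24 without QNZ and 0.54 with QNZ, and 0.82 without QNZ once the length trend was subtracted. Ctsd had 177 FPKM in cocultured fibroblasts, against 176 in fibroblasts alone, and with QNZ 242 FPKM in cocultured fibroblasts, against 243 alone, and so differed by 0.01 or less between the libraries of each pair. Ctsb, a cysteine protease, had 175 FPKM in cocultured fibroblasts, against 134 in fibroblasts alone, and with QNZ 222 FPKM in cocultured fibroblasts, against 203 alone, and its differences of 0.38 and 0.13 turned to -0.19 and -0.22 with the length trend subtracted. Ctsk, the collagen-degrading protease best known from osteoclasts, had 45.1 FPKM in cocultured fibroblasts, against 40.5 in fibroblasts alone, and with QNZ 65.3 FPKM in cocultured fibroblasts, against 36 alone. Its difference of 0.84 was the largest of the cathepsins in the pair with QNZ. With the length trend subtracted Ctsk was at 0.83 without QNZ and 1.47 with QNZ, so that it was counted higher with QNZ. The other 5 had differences from -0.49 to 0.38 without QNZ and from -0.22 to 0.40 with QNZ. Osteoclast markers were few: Dcstamp and Calcr had 0 reads in all libraries, 5 of 12 genes in the list reached a mean FPKM of 1, and 2 of the 12 (Ctsk and Atp6v0d2) are genes described here. The summed FPKM of that list was 97.4 in cocultured fibroblasts with QNZ, against 50.4 in fibroblasts alone with QNZ, much of it Ctsk itself. Macrophage markers also moved with coculture at a low level (3 of 20 at a mean FPKM of at least 1, C1qa and C1qc at 0 reads in all libraries), with a summed FPKM of 21 in cocultured fibroblasts against 8.38 in fibroblasts alone, and with QNZ 13.3 in cocultured fibroblasts against 11.6 alone. Their part in the cathepsin values was not tested.

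V-ATPase genes mostly lay below 0 in coculture. Of 15 measured subunits, 10 were below 0 without QNZ and 13 with QNZ, but the direction of the V1 sector flipped with TPM in the pair without QNZ, where its median was 0.19 in place of -0.31, and with QNZ 8 of the 15 lay above 0 as TPM, with a median of 0.064 in place of -0.32. Atp6v0e, a small subunit of the membrane sector, had 20.6 FPKM in cocultured fibroblasts, against 64.9 in fibroblasts alone, and with QNZ 21.2 FPKM in cocultured fibroblasts, against 53.2 alone. Both cocultured libraries were near 21 FPKM and both libraries of fibroblasts alone above 50. The difference was -1.61 without QNZ, a ratio of 0.317 (0.296 to 0.339), and -1.29 with QNZ, a ratio of 0.399 (0.372 to 0.428). The gene lies at chr17:26663231-26699647 of mm10 on the plus strand. Its difference without QNZ was at least 1 in size under every scaling and trend correction, and with QNZ it was -0.93 as TPM and at least 1 in size otherwise. The related Atp6v0e2 had differences of -0.73 and -0.95. Atp6v1f, a stalk subunit, had 55.1 FPKM in cocultured fibroblasts, against 104 in fibroblasts alone, and with QNZ 62.3 FPKM in cocultured fibroblasts, against 142 alone. Atp6v1g1, another stalk subunit, had 95.3 FPKM in cocultured fibroblasts, against 153 in fibroblasts alone, and with QNZ 135 FPKM in cocultured fibroblasts, against 243 alone. These short genes, of 1063 and 1135 bases, were lower in coculture in both pairs as measured. With the length trend subtracted, Atp6v1f went to 0.074 in place of -0.90 without QNZ and to -0.30 in place of -1.17 with QNZ. Atp6v1g1 likewise went to 0.24 in place of -0.68, and to -0.011 in place of -0.84. Atp6v0d1, which joins the sectors, had 62.1 FPKM in cocultured fibroblasts, against 91.6 in fibroblasts alone, and with QNZ 84.7 FPKM in cocultured fibroblasts, against 103 alone, and its differences of -0.55 and -0.28 became -0.02 and 0.23 with that trend subtracted. Atp6v0c, which forms the proton-carrying ring, had 48.3 FPKM in cocultured fibroblasts, against 74.4 in fibroblasts alone, and with QNZ 70.3 FPKM in cocultured fibroblasts, against 87.9 alone. Atp6v0a1, an isoform of the subunit through which protons pass, lay farthest above 0 of the 15, with differences of 0.83 and 0.83, or 0.20 and 0.43 with the trend subtracted. The V1 subunits not named so far had differences from -0.58 to 0.27 without QNZ and from -0.73 to -0.019 with QNZ.

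The length of a gene and its difference in coculture were related among these genes as among all genes. Spearman's rho across the 50 genes was 0.51 without QNZ and 0.47 with QNZ, beside 0.53 and 0.51 across 10610 genes. Genes are not replicates, the values of each pair come from the same libraries, and rho is given as a description. The Atg8 genes and V0 subunits, whose medians lay below 0 in coculture, had median lengths of 2013 and 3384 bases, and the Atg genes and Ulk kinases, whose medians lay above it, of 5762 and 6232.5 bases. The V1 sector went the other way, with medians below 0 in both pairs (-0.31 and -0.37) and a median length of 4953.5 bases, above the 4478.5 bases of all genes. With QNZ against none, rho across the 50 genes was 0.19 in fibroblasts alone and -0.05 in coculture.

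**Figure D3:**
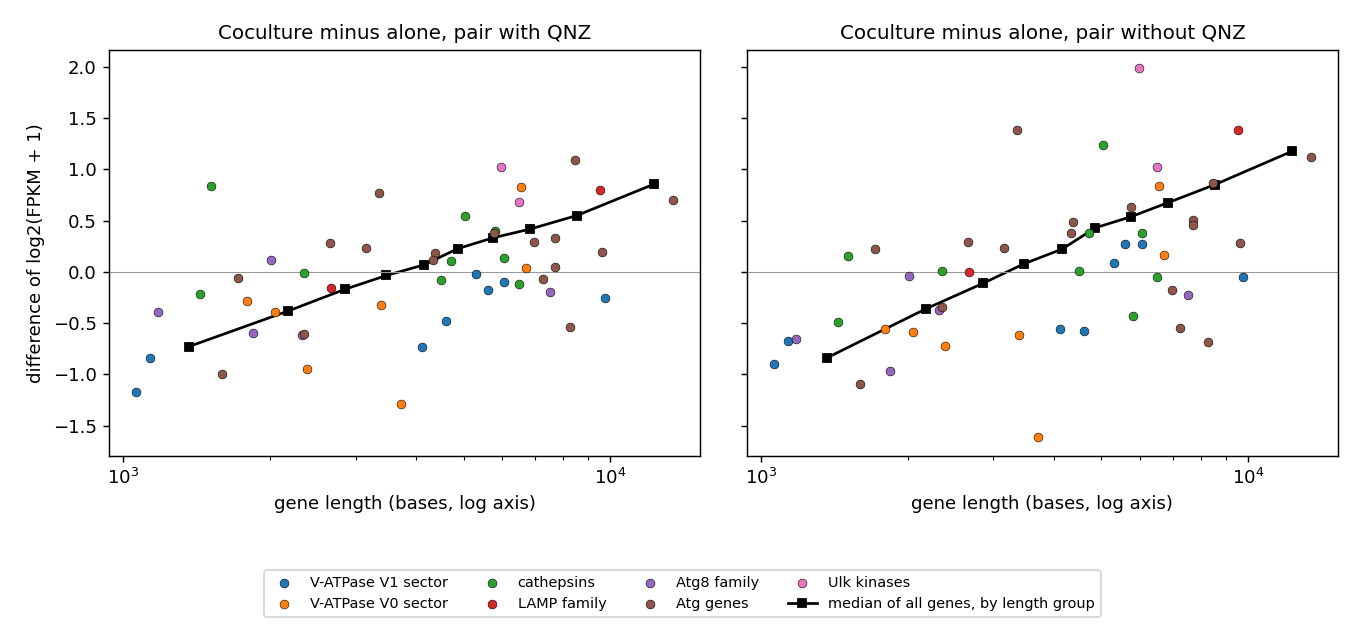
Difference of log2(FPKM + 1), coculture minus alone, against gene length (bases, log axis) for the 50 genes, coloured by family, in the pair with QNZ (left) and without (right). Black squares are the medians of all genes in 10 length groups, which run from -0.84 to 1.18 without QNZ, and Atp6v0e lies far below them while Ulk2 lies above.

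The second comparison asks how fibroblasts with QNZ differed from those without it. In fibroblasts alone 1 of the 50 genes was counted higher with QNZ (Atp6v1c1) and 0 lower, where 1.16% of all genes were higher and 1.56% lower. This turned to 0 higher and 1 lower (Ctsc) under median-of-ratios scaling and with either trend subtracted, where Atp6v1c1 was at 0.74, 0.74 and 0.67 and Ctsc at -1.04, -1.03 and -1.07. Of all 10610 genes, 41, 55 and 52 were higher in these settings and 306, 227 and 216 lower. In coculture 0 were counted in either direction, where 0.311% of all genes were higher and 0.745% lower. With QNZ, 39 of 50 genes (78%) lay above 0 in fibroblasts alone, beside 70.5% of all genes, at a median of 0.33 beside 0.20. In coculture 46 of 50 (92%) did, beside 60.1% of all genes, at a median of 0.18 beside 0.05. Over the scalings and trend corrections 29 to 40 of the 50 lay above 0 in fibroblasts alone and 41 to 46 in coculture. Of all 10610 genes, 4977 to 8293 and 5325 to 6376 did. At the smaller size of 0.58, 13 were higher and 1 lower (Ctsc) with QNZ in fibroblasts alone, or 13 of 50 where 13.2% of all genes were higher and 4.32% lower, and 0 were in coculture, where 1.67% were higher and 3.23% lower. The 62 genes together took 0.866% of reads in cocultured fibroblasts with QNZ, against 0.717% in cocultured fibroblasts, and 0.904% in fibroblasts alone with QNZ, against 0.713% in fibroblasts alone. Of the 11 measured fibroblast markers, 7 were counted lower with QNZ in fibroblasts alone and 1 in coculture, and 0 higher in either, and their part in these values was not tested. The QNZ comparisons share no library with each other, but each shares 1 library with each coculture comparison.

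The V1 sector of V-ATPase, the part in the cytosol that splits ATP, lay above 0 together with QNZ. All 8 measured V1 subunits were above 0 with QNZ in fibroblasts alone (median 0.60) and in coculture (median 0.49), and so they were under every scaling and trend correction, with medians from 0.33 to 0.75 and from 0.45 to 0.50. The counting intervals of all 8 ratios lay above 1 in both comparisons, and the share of all genes with such an interval was not computed. As measured, 70.5% of all genes lay above 0 with QNZ in fibroblasts alone and 60.1% in coculture. Atp6v1c1, which links the stalk to the membrane sector, had 18.4 FPKM in fibroblasts alone with QNZ, against 8.67 without it, and 16.2 FPKM in cocultured fibroblasts with QNZ, against 10.6 without it. Its differences were 1.01, a ratio of 2.13 (1.95 to 2.32), and 0.56, a ratio of 1.52 (1.39 to 1.66). Atp6v1a, the catalytic subunit, had 45 FPKM in fibroblasts alone with QNZ, against 23.4 without it, and 42 FPKM in cocultured fibroblasts with QNZ, against 28.5 without it. Here both QNZ libraries lay above both libraries without QNZ, with ratios of 1.93 (1.83 to 2.03) and 1.48 (1.4 to 1.55). The other 6 had differences from 0.45 to 0.66 in fibroblasts alone and from 0.17 to 0.55 in coculture. Atp6v1g1 had 243 FPKM in fibroblasts alone with QNZ, against 153 without it, and 135 FPKM in cocultured fibroblasts with QNZ, against 95.3 without it, so that it was higher with QNZ in both settings.

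The membrane sector, V0, also lay above 0 with QNZ in coculture, in 7 of 7 subunits (median 0.44), or 6 of 7 with the length trend or the length and GC trends subtracted. In fibroblasts alone 6 of 7 lay above 0 (median 0.28), but only 3 of 7 under median-of-ratios scaling, where the median was -0.01. Tcirg1, the a3 isoform of this sector, whose symbol the naming rule does not take, lay below 0 in both settings, at 23.2 FPKM in fibroblasts alone with QNZ, against 27.4 without it, and 26 FPKM in cocultured fibroblasts with QNZ, against 26.4 without it, differences of -0.23 and -0.023. Atp6v0d1 had 103 FPKM in fibroblasts alone with QNZ, against 91.6 without it, and 84.7 FPKM in cocultured fibroblasts with QNZ, against 62.1 without it. Atp6v0c had 87.9 FPKM in fibroblasts alone with QNZ, against 74.4 without it, and 70.3 FPKM in cocultured fibroblasts with QNZ, against 48.3 without it. For both, the difference with QNZ was larger in coculture (0.44 and 0.53) than alone (0.17 and 0.24), a contrast that could not be tested with 1 library each. Atp6v0e, the subunit that was lowest in coculture, had differences of -0.28 and 0.043 with QNZ.

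**Figure D4:**
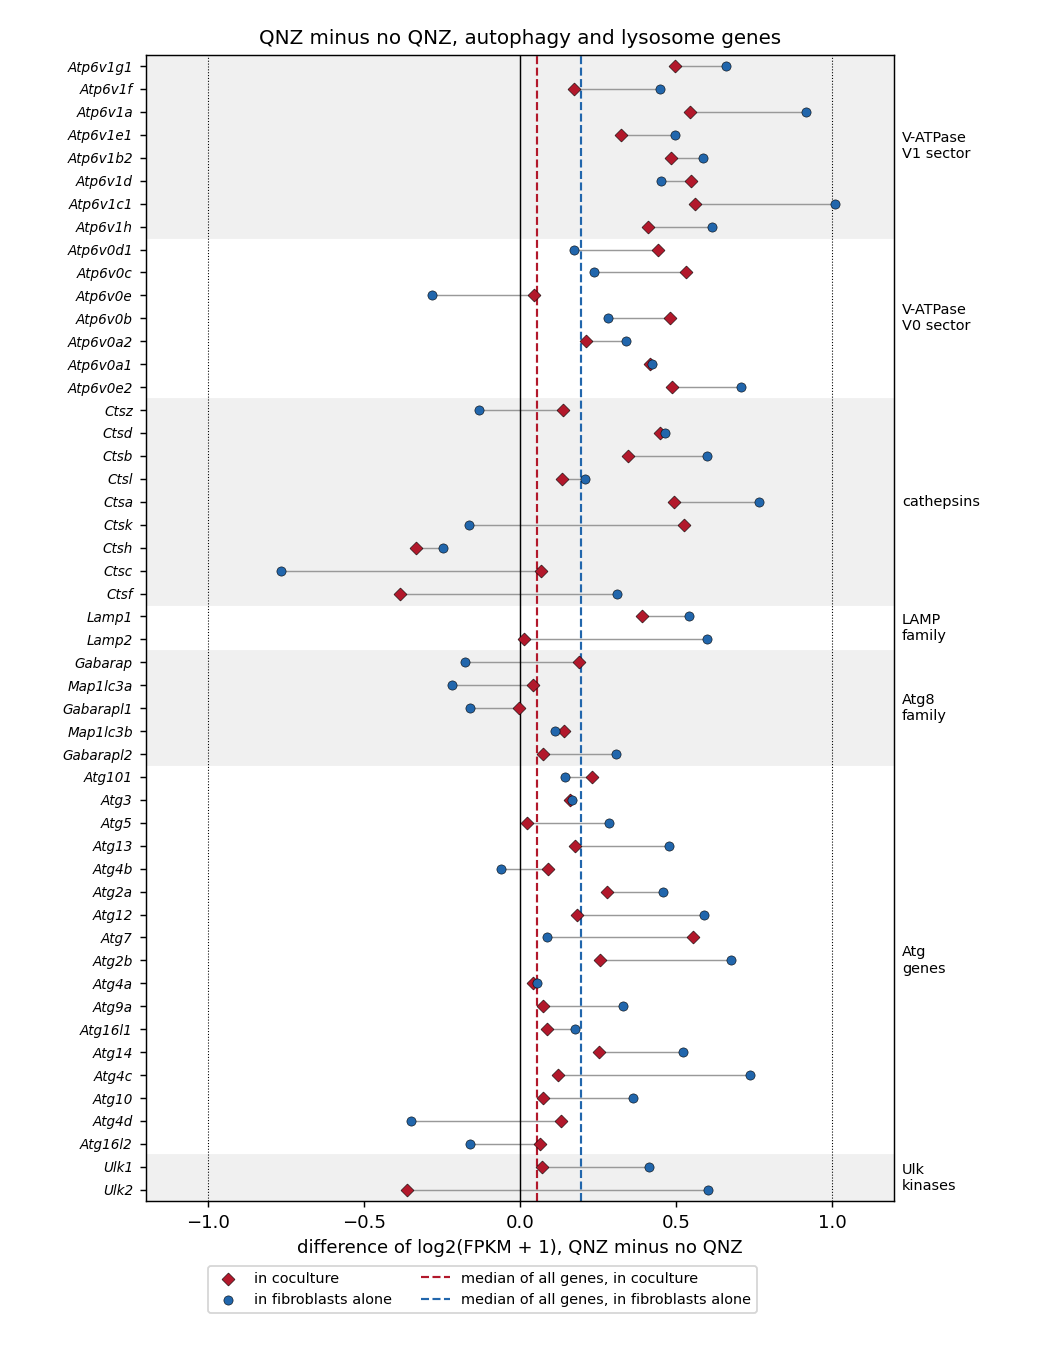
Difference of log2(FPKM + 1), QNZ minus no QNZ, for each of the 50 genes in coculture (red diamonds) and in fibroblasts alone (blue circles). Dashed lines are the medians of all genes (0.05 and 0.20), dotted lines mark the size counted, and the 8 V1 subunits at the top all lie above 0 in both.

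Lamp1 and several cathepsins were higher with QNZ in both settings, by less than the size counted. Lamp1 had 327 FPKM in fibroblasts alone with QNZ, against 225 without it, and 294 FPKM in cocultured fibroblasts with QNZ, against 224 without it, and both QNZ libraries were above both others. Lamp2 had 37.3 FPKM in fibroblasts alone with QNZ, against 24.3 without it, but 65.8 FPKM in cocultured fibroblasts with QNZ, against 65.1 without it. Ctsd had 243 FPKM in fibroblasts alone with QNZ, against 176 without it, and 242 FPKM in cocultured fibroblasts with QNZ, against 177 without it. Ctsa, a carboxypeptidase that also protects lysosomal galactosidase, had 80.2 FPKM in fibroblasts alone with QNZ, against 46.8 without it, and 86.7 FPKM in cocultured fibroblasts with QNZ, against 61.3 without it. Ctsd, Ctsa and Ctsb thus had both QNZ libraries above both others, with differences for Ctsa of 0.76 and 0.49. In coculture 7 of 9 cathepsins lay above 0 with QNZ, under every scaling and trend correction (median 0.14). In fibroblasts alone 5 of 9 did, with a median of 0.21 that turned to -0.09 under median-of-ratios scaling. Ctsc, an activator of granule proteases, had 5.55 FPKM in fibroblasts alone with QNZ, against 10.1 without it, and 7.66 FPKM in cocultured fibroblasts with QNZ, against 7.26 without it. Ctsh, an aminopeptidase, was lower with QNZ in both settings, with differences of -0.25 and -0.33.

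Of the Atg, Ulk and Atg8 genes, 0 were counted with QNZ, though Atg4c in fibroblasts alone reached 1.07 as TPM. All 17 measured Atg genes lay above 0 with QNZ in coculture, at a median of 0.13, or 14 to 17 of them over the scalings and trend corrections, and 14 of 17 did in fibroblasts alone, at a median of 0.29, or 9 to 15. The counting interval lay above 1 for 8 of the 17 in coculture and for 12 in fibroblasts alone. The share of all genes with such an interval was not computed. As measured, 60.1% of all genes lay above 0 with QNZ in coculture and 70.5% in fibroblasts alone. Atg4c had 2.67 FPKM in fibroblasts alone with QNZ, against 1.2 without it, and 5.24 FPKM in cocultured fibroblasts with QNZ, against 4.74 without it, the largest difference with QNZ among them in fibroblasts alone (0.74). Of the Ulk kinases, Ulk1 had differences of 0.41 in fibroblasts alone and 0.071 in coculture, and Ulk2 of 0.60 and -0.36. The Atg8 genes lay on both sides of 0, with medians of -0.16 in fibroblasts alone and 0.072 in coculture, and Map1lc3b had differences of 0.11 and 0.14.

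The promoters of these genes were searched because many lysosome genes are known to carry the E-box like CLEAR element, to which the factors TFEB, TFE3 and MITF bind. The letters CACGTG, read on both strands, were in 13 of 45 promoters of 40 measured genes (28.9%), beside 10.4% of promoters of all genes with a mean FPKM of at least 1 and 7.15% of all 32851 promoters. The longer TCACGTGA, which holds CACGTG within it, was in 6 of 45 (13.3%), beside 2.06% and 0.974%. A match is a description of the sequence, not of binding. The genes with CACGTG were Atg3, Atg5, Atg7, Atg14, Atp6v0b, Atp6v0d1, Atp6v0e, Atp6v1a, Ctsa, Ctsd, Ctsf, Ctsl and Lamp1. They did not share a direction in coculture, since Atp6v0e was lower and Ctsf higher without QNZ. With QNZ, Atp6v0e lay below 0 in fibroblasts alone (-0.28) and Ctsf in coculture (-0.38). The others lay above 0 in both settings, as most of the measured genes did. Of the V1 subunits, 1 of the 4 with a promoter held CACGTG. A link of the element to QNZ was not tested. The promoters printed here belong to 4 genes picked because they hold CACGTG and lay above 0 with QNZ in both settings. They are from RefSeq on GRCm38.p6, from 250 bases before the start to 50 after it, with CACGTG in capitals. Lamp1 has CACGTG 4 times before its start (chr8:13158911-13159210, plus strand), Ctsa has TCACGTGA on either side of its start (chr2:164833523-164833822, plus strand), and Atp6v1a (chr16:44139210-44139509, minus strand) and Atp6v0d1 (chr8:105566015-105566314, minus strand) have it once each. Another promoter of Ctsa (chr2:164832622-164832921, plus strand), not printed, does not hold CACGTG.
Lamp1: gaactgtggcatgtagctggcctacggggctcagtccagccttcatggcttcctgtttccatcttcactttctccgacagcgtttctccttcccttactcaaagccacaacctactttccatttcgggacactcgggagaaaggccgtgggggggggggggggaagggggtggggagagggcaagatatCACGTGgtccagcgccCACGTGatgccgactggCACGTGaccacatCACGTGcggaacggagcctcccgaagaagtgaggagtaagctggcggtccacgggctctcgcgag
Ctsa: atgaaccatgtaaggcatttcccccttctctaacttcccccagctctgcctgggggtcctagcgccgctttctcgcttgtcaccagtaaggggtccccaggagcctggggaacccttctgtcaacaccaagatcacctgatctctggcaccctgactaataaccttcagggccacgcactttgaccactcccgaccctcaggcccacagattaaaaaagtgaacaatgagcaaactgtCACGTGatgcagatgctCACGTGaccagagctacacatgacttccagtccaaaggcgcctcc
Atp6v1a: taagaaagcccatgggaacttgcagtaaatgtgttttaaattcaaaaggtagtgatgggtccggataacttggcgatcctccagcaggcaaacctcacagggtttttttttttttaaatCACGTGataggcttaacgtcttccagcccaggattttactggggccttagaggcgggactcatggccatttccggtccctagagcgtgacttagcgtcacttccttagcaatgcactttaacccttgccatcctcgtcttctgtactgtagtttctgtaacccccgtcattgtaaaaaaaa
Atp6v0d1: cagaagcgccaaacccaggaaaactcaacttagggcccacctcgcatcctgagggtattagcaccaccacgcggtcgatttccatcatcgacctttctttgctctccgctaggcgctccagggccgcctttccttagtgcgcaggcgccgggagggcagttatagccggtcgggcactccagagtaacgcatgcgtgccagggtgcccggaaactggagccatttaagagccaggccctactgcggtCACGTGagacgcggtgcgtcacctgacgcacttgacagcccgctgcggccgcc

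Genes of the same pathway with other names were read beside these, in coculture without QNZ against a background of 24.3% of all genes higher and 11.7% lower. With QNZ this background was 14.4% higher and 9.25% lower. With the length trend subtracted, 1227 of 10610 genes were higher and 1181 lower without QNZ, and 886 and 673 with QNZ. The counts of each list below are to be read beside the background of the same setting. Of the factors that bind such elements, Mitf had 1.58 FPKM in cocultured fibroblasts, against 0.189 in fibroblasts alone, and with QNZ 2.74 FPKM in cocultured fibroblasts, against 0.307 alone. Tfe3 had 10.6 FPKM in cocultured fibroblasts, against 7.75 in fibroblasts alone, and with QNZ 10.3 FPKM in cocultured fibroblasts, against 8.41 alone, and Tfeb had at most 1.05 FPKM in any library. Of 10 measured transcription factors of lysosome and autophagy genes, 6 were counted higher in coculture without QNZ and 0 lower (median 1.08), and 5 higher and 0 lower with QNZ (median 0.87). With the length trend subtracted, 3 higher and 0 lower were counted without QNZ and 3 higher and 0 lower with QNZ, and the medians were 0.50 and 0.51. Zkscan3, known in human cells as a repressor of autophagy genes, had 18 FPKM in cocultured fibroblasts, against 3.3 in fibroblasts alone, and with QNZ 18.4 FPKM in cocultured fibroblasts, against 4.71 alone. Foxo3, an activator of autophagy genes, had 26.2 FPKM in cocultured fibroblasts, against 6.81 in fibroblasts alone, and with QNZ 27.3 FPKM in cocultured fibroblasts, against 11.1 alone. With the trend subtracted the differences were 1.35 and 1.24 for Zkscan3 and 1.05 and 0.73 for Foxo3. Neither was counted with QNZ against none.

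Of 17 measured genes of initiation and nucleation outside the Atg and Ulk names, 4 were counted higher in coculture without QNZ and 0 lower, and 2 higher and 0 lower with QNZ. With the length trend subtracted these became 2 higher and 2 lower, and 1 higher and 0 lower, and the median without QNZ was 0.17 in place of 0.68. Rb1cc1, the scaffold FIP200 of the Ulk complex, had 10.2 FPKM in cocultured fibroblasts, against 1.93 in fibroblasts alone, and with QNZ 8.89 FPKM in cocultured fibroblasts, against 2.76 alone, but its differences of 1.93 and 1.40 fell below the size counted with the trend subtracted (0.70 and 0.47). Trp53inp1, a p53 target that binds Atg8 proteins, had 30.5 FPKM in cocultured fibroblasts, against 2.59 in fibroblasts alone, and with QNZ 44.4 FPKM in cocultured fibroblasts, against 6.07 alone, and stayed counted at 2.51 and 2.29. Becn1, of the lipid kinase complex, had differences of -0.18 and -0.20. Among 13 autophagy receptors, 4 were counted higher and 0 lower in coculture without QNZ (median 0.74), and 2 higher and 0 lower (median 0.32) with the length trend subtracted. Wdfy3 had a difference of 1.96 that became 0.70, and the mitophagy receptor Bnip3l one of 1.39 that became 1.23. With QNZ against none, 1 receptor was counted higher in each setting, where 1.16% of all genes were in fibroblasts alone and 0.311% in coculture. This was Sqstm1, the receptor p62 that is itself degraded by autophagy, which is named here after its values were seen. It had 573 FPKM in fibroblasts alone with QNZ, against 233 without it, and 506 FPKM in cocultured fibroblasts with QNZ, against 243 without it, a difference of 1.30 in fibroblasts alone and 1.05 in coculture (1.15 and 0.999 with the trend subtracted), and in coculture against alone it had 0.061 without QNZ and -0.18 with QNZ.

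Downstream, 18 genes of fusion with the lysosome had 1 counted higher and 2 lower in coculture without QNZ. Vamp8, a SNARE of that fusion, had 12.1 FPKM in cocultured fibroblasts, against 39.9 in fibroblasts alone, and with QNZ 10.3 FPKM in cocultured fibroblasts, against 32.7 alone. Ykt6, another such SNARE, was the other gene counted lower, with a difference of -1.07, and the tether factor Epg5 was the gene counted higher, with 1.43. With the length trend subtracted Vamp8 stayed counted at -1.32, while Ykt6 (-0.98) and Epg5 (0.46) did not. Of 41 measured lysosomal hydrolases outside the 9 cathepsins, 4 were counted higher and 0 lower without QNZ, and 1 higher and 0 lower with QNZ, the sulfatase Ids at 9.08 FPKM in cocultured fibroblasts, against 2.2 in fibroblasts alone, and with QNZ 8.32 FPKM in cocultured fibroblasts, against 2.66 alone. With the trend subtracted 5 higher and 0 lower were counted without QNZ and 3 higher and 0 lower with QNZ. Of 25 genes of the lysosomal membrane and transport, 7 were counted higher and 1 lower without QNZ, and 4 higher and 2 lower with the trend subtracted. The gene lower before that subtraction was the tetraspanin Cd63, at 130.1 FPKM in cocultured fibroblasts, against 376 in fibroblasts alone, and with QNZ 151 FPKM in cocultured fibroblasts, against 283 alone, and the cholesterol transporter Npc1 had the largest difference among those with a mean FPKM of at least 5, at a difference of 1.81, which became 0.74 with the trend subtracted. Of 28 genes around mTORC1, the kinase that restrains Ulk1 when nutrients are plentiful, 5 were counted higher and 5 lower without QNZ, and 2 higher and 2 lower with the trend subtracted. Fnip1 and Fnip2, partners of folliculin, were higher, with Fnip1 at 14.9 FPKM in cocultured fibroblasts, against 1.22 in fibroblasts alone, and with QNZ 21.9 FPKM in cocultured fibroblasts, against 3.67 alone, while Lamtor4 and Lamtor5, short genes of the complex that holds mTORC1 on the lysosome, were lower, with Lamtor5 at 29.8 FPKM in cocultured fibroblasts, against 78.4 in fibroblasts alone, and with QNZ 30.2 FPKM in cocultured fibroblasts, against 73.6 alone. With the length trend subtracted Fnip1 was at 2.13, Fnip2 at 0.95, Lamtor4 at -0.54 and Lamtor5 at -0.25, so that of these only Fnip1 stayed counted. With QNZ against none, 4 of the 28 genes were counted higher in fibroblasts alone and 2 in coculture, and 0 lower in either. Of all genes 1.16% and 0.311% were higher in these comparisons. With the trend subtracted 1 of the 28 was counted higher in fibroblasts alone and 2 in coculture, where 55 and 32 of all 10610 genes were. V-ATPase genes with other names split as measured, with 1 of 9 higher and 1 lower in coculture without QNZ. With the trend subtracted 1 was higher and 0 lower. The assembly factor Tmem199 was the gene counted lower, with a difference of -1.01, or -0.52 with the trend subtracted. The accessory subunit Atp6ap2 was not counted as measured, at 0.94, but was the gene counted higher with the trend subtracted, at 1.14. It had 33.5 FPKM in fibroblasts alone with QNZ, against 17.4 without it, and 54.5 FPKM in cocultured fibroblasts with QNZ, against 34.2 without it. Atp6ap2 thus lay above 0 with QNZ in both settings, unlike Tcirg1 of the same list.

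Some of these values carry a limit of assignment. In GENCODE M21, 23 of the 62 genes share exon bases with a gene on the other strand and 4 with a gene on the same strand. These 4 are Atg9a, Atp6v0a4, Ctsd and Ctsl, whose reads could have been split with or lost to the overlapping gene. The library kit marks strand, but the sources used here do not say whether the counting used it, so for Atg4d and the other genes with an antisense overlap reads of the partner cannot be told apart.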

How the data were processed

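RNA was sequenced from mouse embryonic fibroblasts in 4 conditions with 1 library each. Per the submitters' processing notes, STAR 2.5.4b was used with mm10, as was Cuffnorm (Cufflinks 2.2.1). For each gene and library the authors deposited a whole-number read count without normalization and an FPKM. Each deposited FPKM equalled the count per kilobase of gene and per 1000000 reads within a relative tolerance of 1e-06. The read counter, annotation version and strand setting are not given in the sources used here. Every value column was matched to a sample by its name (0 unmatched).

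Where a symbol had several gene IDs (23 symbols), the values were added. Genes with a mean FPKM of at least 1 over the 4 libraries were compared on log2(FPKM + 1), so that differences understate changes of low genes, and counted at a difference of at least 1. Ratios of counts per 1000000 reads carry exact binomial 95% intervals. Where 0 reads were found, the limit is 3 reads. Intervals and limits cover counting error only. With 1 library per group there was no test. The genes and lists were chosen with earlier results of these data known. Named genes were those counted in any comparison, the 3 with the highest mean FPKM in each family, all Atg8 genes and both Ulk kinases. Of each pathway list, the 2 largest rises and 2 largest falls in coculture without QNZ at a mean FPKM of at least 5 could be named. Other genes were named after their values were seen.

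Alternatives were a pseudocount of 0.1, no filter, a mean FPKM of at least 5, median-of-ratios scaling, TPM, subtraction of a lowess trend (span 0.3) on gene length or, in 3 rounds, on length and GC content, and a size of 0.58. GC content and overlaps came from GENCODE M21, and promoters from RefSeq on GRCm38.p6, which matched 50 of the 62 genes. Tables were handled in pandas 2.3.3 and numpy 2.4.6 under Python 3.11.15, intervals came from scipy 1.17.1, trends from statsmodels 0.14.6 and figures from matplotlib 3.10.9.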

Additional observations from a re-analysis of the deposited data

Results flagged for a closer look

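For 9 of the 50 genes an effect had opposite signs in the parts of the design, with counting intervals on either side of a ratio of 1. The share of all genes that meet this rule was not computed, so the 9 are not set against a background. None of these differences was tested, since each part is 1 library against 1. The coculture difference on log2(FPKM + 1) was negative without QNZ and positive with QNZ for Atg7, the E1-like enzyme of Atg8 and Atg12 conjugation (-0.18 and 0.29), and for Ctsc (-0.43 and 0.40). It was positive without QNZ and negative with QNZ for the V1 subunits Atp6v1a (0.27 and -0.10) and Atp6v1c1 (0.27 and -0.18). For both V1 subunits it lay below the median of all genes in their length group, which was 0.54 without QNZ and 0.33 with QNZ. The QNZ difference was positive in fibroblasts alone and negative in coculture for Ulk2 (0.60 and -0.36) and Ctsf (0.31 and -0.38). It was negative in fibroblasts alone and positive in coculture for Ctsk (-0.16 and 0.52), Ctsz (-0.13 and 0.14) and Gabarap (-0.18 and 0.19). The intervals cover counting error only, and the spread between cultures is unknown. All signs in this section are as measured. Subtracting the length trend turned the coculture sign for 16 of the 50 genes without QNZ and for 15 with QNZ.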

How the results depend on the processing

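No paired analysis was possible because each condition has 1 library, and for the same reason no replicate could be left out. The number of genes counted in coculture without QNZ was 8, and became 16 under median-of-ratios scaling, 5 with the length trend subtracted and 19 at a size of 0.58. With QNZ, 5 became 8 as TPM, 3 with the length trend or the length and GC trends subtracted and 17 at 0.58. For QNZ in fibroblasts alone, 1 became 3 as TPM, 2 at a pseudocount of 0.1 and 14 at 0.58. The median of the 50 genes in coculture without QNZ (0.0049) was 0.52 as TPM, -0.51 under median-of-ratios scaling and -0.15 with length and GC trends subtracted. With QNZ (-0.04) it was 0.33 as TPM and -0.27 under median-of-ratios scaling. For QNZ in fibroblasts alone (0.33) it was 0.49 as TPM, 0.084 under median-of-ratios scaling and 0.18 with either trend subtracted. For QNZ in coculture the median stayed within 0.14 to 0.19 over the scalings and trend corrections. Of the 14 counted differences, those that reversed were Atg2b in coculture without QNZ (-0.053 with the length trend subtracted) and Lamp2 (-3.22e-05 with length and GC trends subtracted). Over all 50 genes the sign in coculture turned for 16 without QNZ and 15 with QNZ with the length trend subtracted, 18 and 17 with length and GC trends, 16 and 9 under median-of-ratios scaling and 10 and 14 as TPM. Ulk2, Atg4c and Atp6v0e, all in coculture without QNZ, were the 3 of 14 counted differences that stayed counted in every scaling and trend correction. The cause of these shifts was not tested. Depth was not the limit for most of the 50 genes, but Atg4c rested on 62 reads in fibroblasts alone, and the 12 genes near 0 cannot be compared.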
